A study of Homo sapiens with 4 samples.

Results

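The hedgehog receptors and GLI factors are 9 of the 58174 genes in the deposited tables: the surface proteins PTCH1, BOC, CDON and HHIP, the membrane transducer SMO, the cytoplasmic regulator SUFU and the transcription factors GLI1, GLI2 and GLI3. They were listed by symbol for their place in the pathway and not by a measured value, though with earlier results of these data known. Of the 9, 9 passed the filter on low counts. Total RNA of Daoy cells, an established line from a human medulloblastoma, was sequenced in 2 wild type and 2 EED-knockout libraries, with no treatment or time named in the labels. EED is an essential part of PRC2, the Polycomb complex that trimethylates lysine 27 of histone H3 at silenced genes. The labels give neither the lesion in EED nor a clone, and separate cultures are not stated, so the p-values reflect only how far these 4 libraries spread, which may be technical. Names such as wild type 1 and knockout 2 below carry the replicate numbers of the labels.

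Hedgehog signalling is a developmental pathway that drives the growth of granule neuron progenitors in the cerebellum, and its unchecked activity underlies the SHH subgroup of medulloblastoma. In the absence of ligand PTCH1 restrains SMO, and GLI2 and above all GLI3 are processed into repressors. When ligand binds PTCH1 together with a co-receptor such as BOC or CDON, SMO is released and acts in the primary cilium, SUFU lets go of the GLI proteins, and full-length GLI2 and GLI3 activate target genes. GLI1, PTCH1 and HHIP are themselves transcriptional targets, so their messengers are commonly read as an output of the pathway.

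PTCH1 has several alternative first exons, and its counts were divided between transcripts from different starts, as given further on. The windows around a pair of these starts run from 250 bases before to 50 bases after each. They are shown because the transcripts assigned to these starts behaved differently between the libraries. Both are from RefSeq on GRCh38.p14, read 5′ to 3′ on the minus strand of chromosome 9. The first, chr9:95509217-95509516, surrounds the start at 95509266. Transcript PTCH1-001 was assigned to this start, but its own annotated 5′ end, at 95508661, lies downstream of the window. The second, chr9:95516922-95517221, surrounds the distal start at 95516971. Capitals mark a match to the GLI binding motif GACCACCCA on either strand.
PTCH1 start 95509266: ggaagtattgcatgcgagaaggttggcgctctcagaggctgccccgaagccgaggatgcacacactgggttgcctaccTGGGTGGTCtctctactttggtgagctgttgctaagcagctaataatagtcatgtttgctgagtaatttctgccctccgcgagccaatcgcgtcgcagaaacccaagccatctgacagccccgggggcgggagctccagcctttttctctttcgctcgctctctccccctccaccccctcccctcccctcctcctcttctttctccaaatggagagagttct
PTCH1 start 95516971: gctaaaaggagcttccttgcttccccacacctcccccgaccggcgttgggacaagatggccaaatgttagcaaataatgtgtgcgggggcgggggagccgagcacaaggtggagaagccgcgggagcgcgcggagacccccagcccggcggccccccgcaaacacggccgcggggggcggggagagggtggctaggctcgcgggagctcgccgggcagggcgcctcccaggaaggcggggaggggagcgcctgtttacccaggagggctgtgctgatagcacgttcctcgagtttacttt
The match in the first window reads TGGGTGGTC, the motif on the opposite strand, with its first base 172 bases before the start, and the second window has no exact match. Among the members, 7 had RefSeq windows, 15 in all, and 1 of the 15 held the exact motif, against 83 of all 35116 windows (0.236%). With up to 1 mismatch, 20.0% of the members' windows and 6.74% of all windows held it. The 3 member windows so counted all belong to PTCH1, and a pair of them overlap and share 1 match. The members' windows had a median GC content of 65.7%, against 58.7% for all windows, and a median CpG observed-over-expected ratio of 0.789 against 0.579. A match is a description of the letters and not evidence of binding.

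Library totals ranged from 17836112 to 19106382 estimated counts. EED had wild type counts of 626 and 500 and knockout counts of 340 and 490, and its log2 fold change of -0.49 (95% interval -1.12 to 0.13) was not called by edgeR (adjusted p = 0.878), so its messenger does not settle the genotype of each library. Over all 18349 genes tested edgeR called 0 genes (0%), with 523 higher (2.85%) and 559 lower (3.05%) at an unadjusted p under 0.05, and DESeq2 called 68 (0.371%). As to cell identity, ATOH1, the defining factor of granule neuron progenitors, had 0 counts in all 4 libraries, while the progenitor markers ZIC1, ZIC2 and PAX6 were present and 5 of the 8 markers passed the filter. The summed TPM (kallisto's abundance per transcript length) of those 8 markers was 61.6 and 75.1 (wild type), then 86.3 and 65.5 (knockout). The 6 markers of the SHH subgroup, ATOH1 again among them, summed to 77.5, 98.5, 111 and 85.8 TPM in the same order. The 7 mesenchymal markers, led by VIM and COL1A1, summed to between 3838 and 4454 TPM, and the 4 epithelial markers, mostly KRT8, to between 50.8 and 138.7 TPM. VIM alone had 3091 to 3432 TPM. The mesenchymal markers COL3A1, PDGFRA, LUM and DCN had at most 6.35 TPM each in any library. Blood, glial and endothelial lists stayed at or below 9.08 TPM each, with CD3E and SOX10 at 0 counts. The 5 muscle markers summed to 24.6 and 19.9 TPM (wild type), then 5.03 and 4.69 TPM (knockout), led by ACTN2, with MYOG at no more than 1 count; their part in the results below was not tested. In bulk RNA, fewer cells of a type and less RNA per cell cannot be told apart.

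All 9 core genes were detected in every library, and none passed a test over all genes. GLI1 stood 3.07-fold higher in mean CPM (counts scaled to library size) in knockout than in wild type cells, from very few reads. HHIP was 1.52-fold, SMO 1.42-fold, BOC 1.35-fold, GLI2 1.27-fold and CDON 1.20-fold higher in the mean, and PTCH1, GLI3 and SUFU lay within 1.07-fold. In 4 of the 9 genes the knockout libraries were both above the wild type libraries (GLI1, GLI2, SMO and BOC), an order that 17.8% of all tested genes showed. In 0 of the 9 were they both below, against 18.0% of all tested genes. The median log2 fold change of the 9 was 0.35, against 0.01 for all genes tested, and each of the 9 values was above 0. Over all genes, 9346 values were above 0 and 9003 below. The median deviation of the 9 genes from the wild type mean was 0.10 in wild type 1, -0.10 in wild type 2, 0.30 in knockout 1 and 0.36 in knockout 2 on the log2 scale. Since that mean came from the wild type libraries alone, their values mirror each other. The knockout libraries did not enter the mean, so deviations of the genotypes cannot be compared on equal terms. Of the 9 genes edgeR called 0 and DESeq2 called 0 at an adjusted p under 0.05. At an unadjusted p under 0.05 edgeR found 1 higher, GLI1, and 0 lower. DESeq2 also found 1 higher, but it was SMO (unadjusted p = 0.0493) and not GLI1 (unadjusted p = 0.109). Small shifts were not stable in sign: with 1 library left out at a time, between 6 and 8 of the 9 values stayed above 0.

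**Figure D1:**
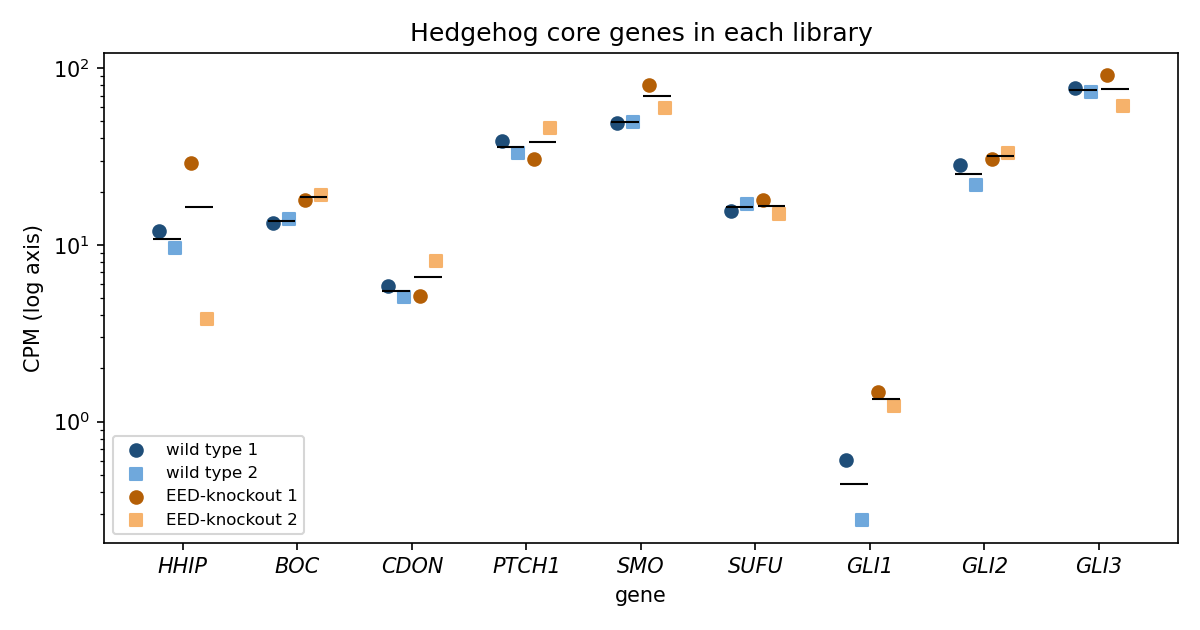
CPM (log axis) of the 9 core genes in each library, with wild type in blue and EED-knockout in orange; circles are replicate 1, squares replicate 2 and bars the mean of each genotype. The genotypes are apart for GLI1, GLI2, SMO and BOC, and for HHIP the knockout libraries lie on either side of the wild type libraries.

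The proteins that meet the ligand at the cell surface were taken first. HHIP (ENSG00000164161; chromosome 4, 144646021 to 144745271, plus strand, GRCh38) encodes a decoy that binds hedgehog ligands and withholds them from PTCH1. It had wild type counts of 217 and 174 and knockout counts of 552 and 71, or 11.9, 9.62, 29.1 and 3.79 CPM. Knockout 1 was the highest of the 4 libraries and knockout 2 the lowest, with both wild type libraries between them. The means were 10.8 ± 1.64 and 16.4 ± 17.9 CPM (SD, n = 2 each), and the log2 fold change was 0.61 ± 0.77 (SE; 95% interval -1.22 to 2.43; edgeR adjusted p = 0.945). It was -1.50 without knockout 1 and 1.42 without knockout 2, so its sign changed with the knockout library left out. HHIP-AS1, an antisense RNA that overlaps HHIP over 15337 bases, had wild type counts of 5 and 23 and knockout counts of 66 and 9, also highest in knockout 1. That overlap is of whole gene spans, introns included, and the overlap of their exons was not measured. No source used here says whether the libraries keep strand. Without strand, reads from exon bases shared by both genes cannot be told apart.

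BOC (ENSG00000144857; chromosome 3, 113211003 to 113287459, plus strand) encodes a co-receptor that presents ligand to PTCH1. It had wild type counts of 243 and 255 and knockout counts of 343 and 357. Replicates lay close together and the genotypes did not overlap, with means of 13.7 ± 0.513 CPM (wild type) and 18.6 ± 0.716 CPM (knockout; SD, n = 2 each). The log2 fold change of 0.43 ± 0.23 (SE; 95% interval -0.12 to 0.99) was nevertheless not called by edgeR (adjusted p = 0.876). Its value stayed above 0 in 15 of 15 alternative analyses, from 0.18 to 0.48. These refit the same libraries, and with the genotypes apart, leaving out a library could hardly change the sign. In its last 513 bases BOC overlaps CFAP44 on the opposite strand, which had wild type counts of 264 and 333 and knockout counts of 374 and 345.

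CDON (ENSG00000064309; chromosome 11, 125955796 to 126063335, minus strand), the paralog of BOC with the same co-receptor role, had wild type counts of 107 and 92 and knockout counts of 97 and 151. Knockout 2 was the highest and the other 3 libraries lay close together, so the genotypes overlapped. The log2 fold change was 0.26 ± 0.37 (SE; 95% interval -0.60 to 1.13; edgeR adjusted p = 0.953), and without knockout 2 it was -0.11.

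PTCH1 (ENSG00000185920; chromosome 9, 95442980 to 95517057, minus strand), the ligand receptor and a pathway target, had wild type counts of 699 and 601 and knockout counts of 585 and 861. These were 38.5, 33.2, 30.8 and 46.0 CPM, with knockout 1 the lowest and knockout 2 the highest. Its log2 fold change was 0.10 ± 0.25 (SE; 95% interval -0.50 to 0.70; edgeR adjusted p = 0.979). Unlike the counts, the TPM values of PTCH1 did not overlap between genotypes, with 8.13 and 9.73 in the wild type and 11.6 and 22.3 in the knockout. Transcripts under 1000 bases held 0.453, 2.88, 5.08 and 13.2 of those TPM in the 4 libraries in that order, and transcripts of 1000 bases or more held 7.67, 6.85, 6.53 and 9.16 TPM, which overlapped. On log2(TPM + 0.1) its log2 fold change was 0.85, and with length-scaled TPM counts 0.83. Antisense RNAs over PTCH1 had at most 33.6 counts in any library.

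SMO (ENSG00000128602; chromosome 7, 129188872 to 129213545, plus strand), the seven-pass membrane protein that passes the signal on, had wild type counts of 893 and 898 and knockout counts of 1528 and 1113. The wild type libraries were nearly equal and both knockout libraries lay above them, at 49.4 ± 0.358 CPM against 70.0 ± 14.8 CPM (SD, n = 2 each). The log2 fold change of 0.50 ± 0.22 (SE; 95% interval -0.01 to 1.01) had the smallest edgeR p after GLI1 and passed the adjusted threshold with neither edgeR (adjusted p = 0.847) nor DESeq2 (adjusted p = 0.883). It ranged from 0.27 without knockout 1 to 0.70 without knockout 2 and stayed above 0 in 15 of 15 alternative analyses. With both knockout libraries above, leaving out a library could hardly change that sign.

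SUFU (ENSG00000107882; chromosome 10, 102503987 to 102633535, plus strand), which holds GLI proteins in the cytoplasm, had the narrowest spread of CPM, relative to its level, of the 9 genes over all 4 libraries together, though not within either genotype. It had wild type counts of 281 and 310 and knockout counts of 342 and 281, with overlapping genotypes at 16.3 ± 1.19 and 16.5 ± 2.12 CPM (SD, n = 2 each). Its log2 fold change was 0.02 ± 0.24 (SE; 95% interval -0.56 to 0.59; edgeR adjusted p = 0.995).

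GLI1 (ENSG00000111087; chromosome 12, 57460135 to 57472262, plus strand), an activator and the most direct transcriptional target of the pathway, was the least counted core gene. It had wild type counts of 11 and 5 and knockout counts of 28 and 23, with exact Poisson 95% intervals of 5.49 to 19.7, 1.62 to 11.7, 18.6 to 40.5 and 14.6 to 34.5, which cover counting error only. Both knockout values lay above both wild type values, but the intervals of wild type 1 and both knockout libraries overlapped. The means were 0.441 ± 0.233 and 1.35 ± 0.174 CPM (SD, n = 2 each), a log2 fold change of 1.60 ± 0.64 (SE; 95% interval 0.10 to 3.11). Its edgeR p was 0.0401 before and 0.823 after adjustment over all genes, and 0.0504 before adjustment with the replicate number as a block. The unadjusted DESeq2 p was 0.109. The fold change stayed above 0 in 15 of 15 alternative analyses, from 1.14 to 2.26. As both knockout values were the higher ones, leaving out a library could hardly change its sign. ARHGAP9, which meets the end of GLI1 by 8 bases on the opposite strand, had 8, 19, 32 and 7 counts, a different order of libraries.

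GLI2 (ENSG00000074047; chromosome 2, 120735623 to 120992653, plus strand), the main activator downstream of SMO, had wild type counts of 517 and 394 and knockout counts of 584 and 619. The knockout libraries were both the higher ones. The log2 fold change was 0.35 ± 0.23 (SE; 95% interval -0.19 to 0.88; edgeR adjusted p = 0.888) and stayed above 0 in 15 of 15 alternative analyses, from 0.13 to 0.82. With that order of libraries, leaving out a library could hardly change its sign.

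GLI3 (ENSG00000106571; chromosome 7, 41960950 to 42237870, minus strand), the main source of the GLI repressor, had wild type counts of 1406 and 1334 and knockout counts of 1731 and 1149. Knockout 1 was the highest and knockout 2 the lowest, with means of 75.6 ± 2.56 and 76.3 ± 21.0 CPM (SD, n = 2 each). Fitted over the 4 libraries, its log2 fold change was 0.01 ± 0.24 (SE; 95% interval -0.54 to 0.57; edgeR adjusted p = 0.997). It lay below 0 in 6 of 15 alternative analyses, lowest at -0.30 without knockout 1.

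**Figure D2:**
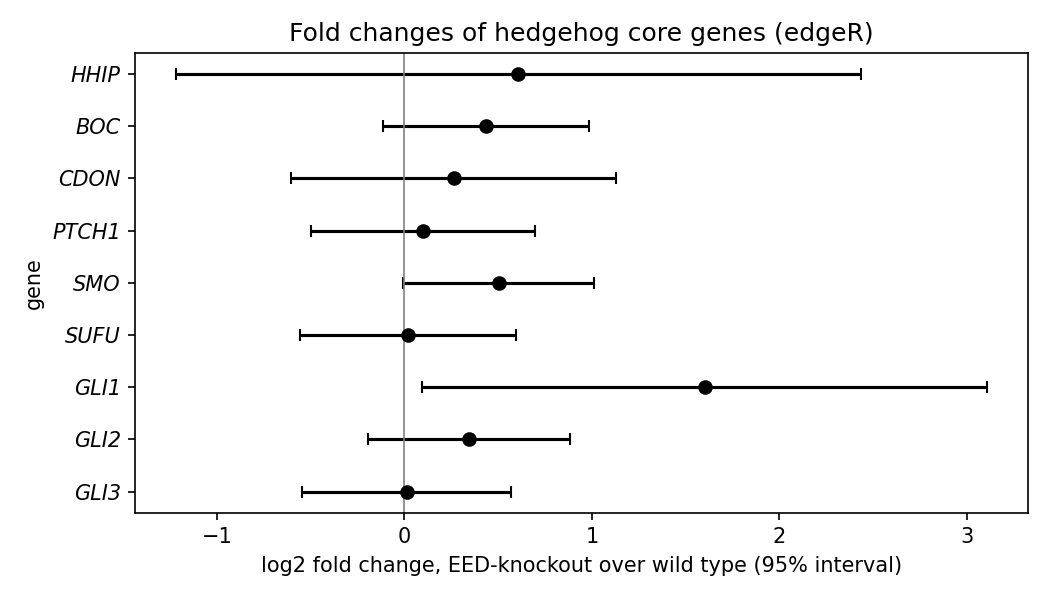
Log2 fold change of EED-knockout over wild type for the 9 core genes from edgeR's fit on all 4 libraries, with 95% intervals. GLI1 alone has an interval that leaves out 0 (0.10 to 3.11), before any adjustment for the number of genes, and HHIP has the widest interval (-1.22 to 2.43).

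The pattern of GLI1 over the 4 libraries was set beside those of the other 61 tested genes of the core and pathway lists, by the root-mean-square difference of centred log2 CPM. The nearest were GPC4, a cell-surface glypican, at 0.469, then SMO at 0.593 and GLI2 at 0.600. GPC4 had wild type counts of 410 and 313 and knockout counts of 591 and 553. The measure takes in the size of the differences between libraries as well as their order. With 4 libraries such a likeness is a description alone.

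Levels were compared between genes per length, in TPM. GLI2 had the highest mean over the 4 libraries at 26.8 TPM (range 18.3 to 43.8), followed by GLI3 at 26.5 (20.7 to 30.1), SMO at 23.6 (19.3 to 31.1), PTCH1 at 12.9 (8.13 to 22.3) and BOC at 10.8 (9.14 to 13.7). HHIP followed at 7.83 TPM (2.10 to 17.3), SUFU at 4.87 (4.11 to 5.69), GLI1 at 3.19 (1.29 to 5.45) and CDON at 3.16 (2.12 to 5.46). Every pair of neighbours in this order had overlapping ranges. The rank of GLI2 came from short transcripts: those under 1000 bases held 13.8, 13.7, 36.2 and 18.3 of its TPM in wild type 1, wild type 2, knockout 1 and knockout 2, from 14.4, 14, 34.5 and 16.7 counts, since kallisto divides by a short effective length. Its transcripts of 1000 bases or more held 5.85, 4.58, 7.53 and 7.25 TPM. GLI1 was similar, with 1.58, 1.23, 5.03 and 3.93 TPM from transcripts under 1000 bases and at most 0.417 TPM from longer ones. For GLI3 such short transcripts held 8.95, 18.2, 14.9 and 14.9 TPM, from 44.8, 76.5, 54.9 and 57.5 counts. For BOC they held 4.55, 4.88, 3.90 and 6.58 TPM.

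When each gene's counts were instead divided by its count-weighted effective length and scaled to the same total as TPM, SMO came first at 25.3 (range 19.7 to 34.8), above GLI3 at 15.6 (13.2 to 18.9). PTCH1 followed at 8.26 (7.36 to 10.6), then GLI2 at 7.10 (5.31 to 8.35), BOC at 6.53 (5.16 to 7.86), SUFU at 5.41 (4.64 to 6.18), HHIP at 3.57 (1.27 to 8.49), CDON at 2.17 (1.81 to 3.22) and GLI1 at 0.588 (0.262 to 0.962). On this scale the neighbours SMO and GLI3, GLI3 and PTCH1, and CDON and GLI1 did not overlap, and the other neighbours did. The highest level was 43.0 times the lowest on this scale and 8.47 times the lowest in TPM. On both scales SMO and GLI3 were among the highest 3 and CDON and GLI1 were the lowest.

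**Figure D3:**
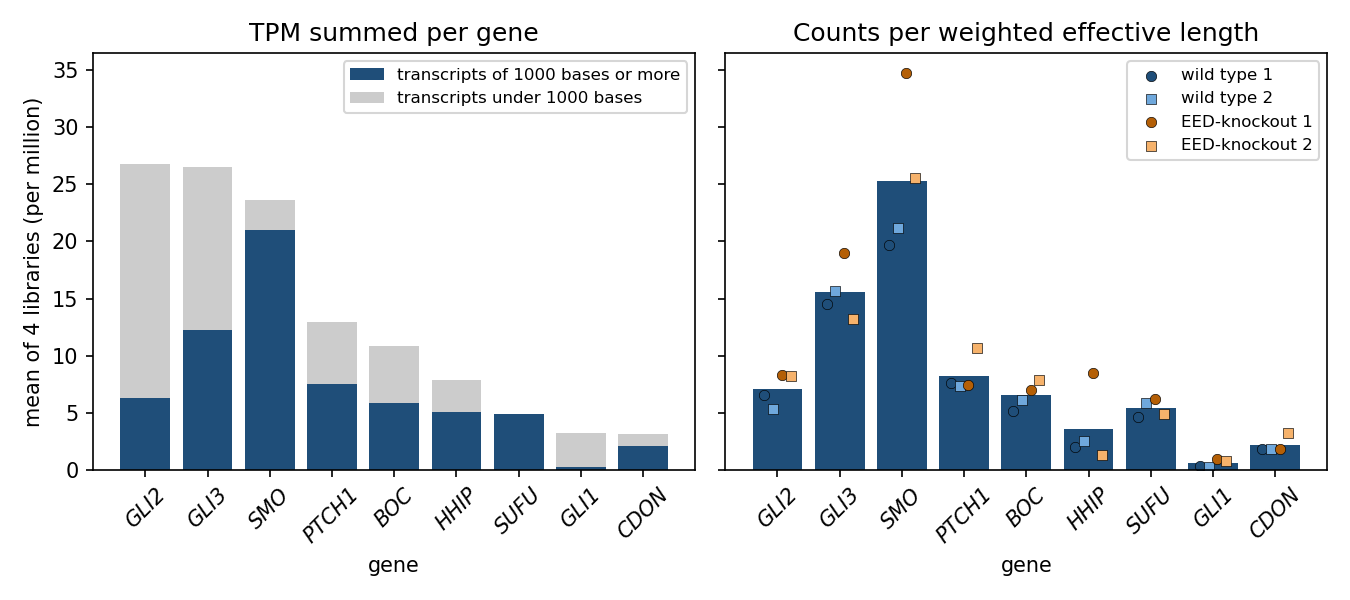
Mean level per length of the 9 core genes over 4 libraries, in TPM divided between transcripts of 1000 bases or more (blue) and under 1000 bases (grey) on the left, and as counts per count-weighted effective length, scaled to the total of TPM, on the right, with each library as a point. GLI2 stands at 26.8 on the left and 7.10 on the right.

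The 9 genes had 96 transcripts in the files, of which 72 were counted in at least 1 library and 30 were tested. EdgeR called 0 of the 30, against 0 of all 56828 transcripts tested (0%). At an unadjusted p under 0.05 it found 2 higher in knockout libraries and 0 lower, where 4.64% of all transcripts passed in either direction. DESeq2 called 1 of the 30, against 0.780% of all transcripts. Its own filter left some transcripts without an adjusted p, GLI1-001 and CDON-004 among them, so DESeq2 could not call these. Kallisto divides reads between transcripts that share exons by a model, so these values are less certain than those of whole genes.

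GLI1-001, a long coding transcript, was 1 of the 2. It had wild type counts of 0.204 and 0 and knockout counts of 13.2 and 11.5 (edgeR adjusted p = 0.856), and the wild type values were below the floor of 3 counts. GLI1-201, a coding transcript of similar length and start, had 7.81, 0, 6.58 and 4.89 in the same order, and the sum of both was 8.01 and 0 against 19.8 and 16.4. The other GLI1 transcripts holding at least 10% of the gene's counts in some library (GLI1-003, GLI1-004, GLI1-005, GLI1-006 and GLI1-007) had at most 5.23 counts each.

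The other of the 2 was PTCH1-203 (ENST00000437951), singled out after its values were seen because it held less than 10% of the gene's counts. It starts at 95516965, in the second sequence window printed above, and had wild type counts of 0.402 and 0 and knockout counts of 39.8 and 32.6. EdgeR did not call it (adjusted p = 0.824), and DESeq2 did (adjusted p = 0.0418). The 6 PTCH1 transcripts assigned to this distal start, PTCH1-203 among them, summed to 28.6 and 16.6 counts (wild type) against 103 and 45.8 (knockout). These sums did not overlap, but PTCH1-203 held 32.6 of the 45.8 counts in knockout 2. Since it was picked by its values, the order of the sums is not separate from that choice. PTCH1-007, another of the 6, had 0, 3.56, 59.4 and 0. PTCH1-001, downstream of the start whose window holds the GLI motif match, had wild type counts of 348 and 357 and knockout counts of 116 and 431, with knockout 1 apart from the other 3. PTCH1-002, from the start at 95507427, had 48.6 and 157 against 223 and 236 in the knockout libraries. PTCH1-202 had 173 and 0.0124 against 101 and 0 in the knockout libraries, high in replicate 1 of both genotypes. The division of PTCH1 between starts thus varied between libraries of the same genotype, and whether it differed between genotypes was not tested.

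GLI2 divided its counts between GLI2-009 and GLI2-201, long coding transcripts with different starts. GLI2-009 had wild type counts of 169 and 344 and knockout counts of 390 and 227, and GLI2-201 had 269, 18.2, 65.4 and 296. Where the first was low the second was high, and their sum was steadier at 438, 362, 455 and 523. GLI2-008, a noncoding transcript, had 26.9, 18.2, 66.9 and 33.8 counts. HHIP-001, a coding transcript of 10072 bases, had wild type counts of 214 and 112 and knockout counts of 307 and 35.4, and the shorter HHIP-002, of 1770 bases, had 0, 44.5, 232 and 23.3. The noncoding HHIP-004 had at most 10.4 counts. Both coding HHIP transcripts were highest in knockout 1.

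**Figure D4:**
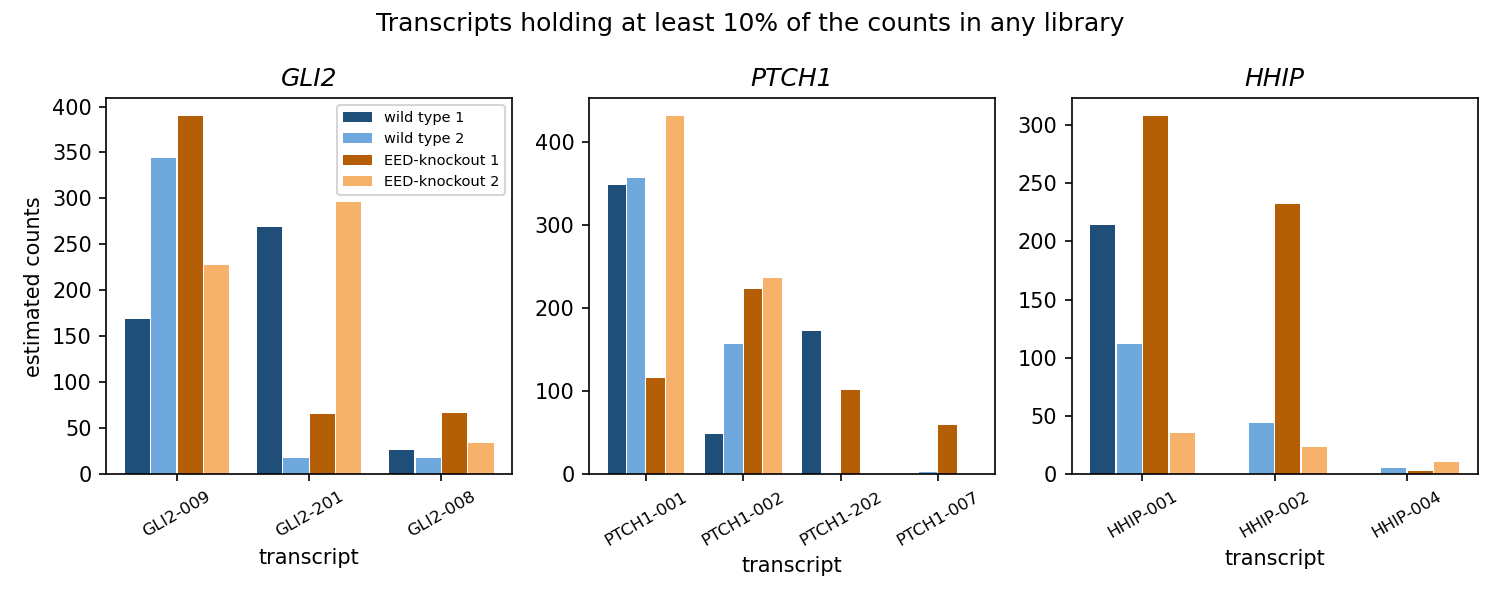
Estimated counts of the transcripts holding at least 10% of the gene's counts in any library for GLI2, PTCH1 and HHIP, with 1 bar per library. GLI2-009 and GLI2-201 are high in different libraries, PTCH1-202 is near 0 in both libraries of replicate 2, and knockout 1 is the highest library for HHIP-001 and HHIP-002.

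SMO, SUFU and GLI3 each had a single transcript above that share. SMO-001 had wild type counts of 866 and 888 and knockout counts of 1517 and 1090, SUFU-001 had 271, 277, 316 and 273, and GLI3-001 had 1361, 1257, 1676 and 1039. For BOC, BOC-001 had wild type counts of 106 and 102 and knockout counts of 161 and 192, while BOC-003, also coding, stayed between 65.1 and 72.6. BOC-004 and the retained-intron transcript BOC-007 had at most 50.3 counts each. CDON-007 had wild type counts of 49.0 and 64.4 and knockout counts of 65.9 and 101, and CDON-001, CDON-002 and CDON-004 each had at most 28.6 counts and 0 in some library. CDON-001 and CDON-002 were not tested, and none of the others passed edgeR's transcript test.

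The rest of the pathway was read from 5 lists with 57 genes in all, of which 53 were tested. EdgeR and DESeq2 called 0 of the 53, and at an unadjusted p under 0.05 edgeR found 2 higher and 0 lower, where 2.85% of all tested genes were higher and 3.05% lower. Their median log2 fold change was 0.11, with 34 above 0 and 19 below. The knockout libraries were both above the wild type libraries for 11 of the 53 and both below for 13, where 17.8% and 18.0% of all tested genes were so ordered.

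Of the 8 genes for ligands and their release 6 were tested, and the median of their log2 fold changes was 0.76, with 4 above 0 and 2 below. The median fell between SCUBE3 at 0.25 and SCUBE2 at 1.27, with no gene near it. SHH, the ligand for which the medulloblastoma subgroup is named (chromosome 7, 155799986 to 155812273), had wild type counts of 8 and 29 and knockout counts of 107 and 78. The knockout libraries were both above the wild type libraries, at 1.02 ± 0.823 and 4.90 ± 1.04 CPM (SD, n = 2 each). The log2 fold change of 2.25 ± 0.63 (SE; 95% interval 0.76 to 3.75) was called by neither edgeR (adjusted p = 0.799) nor DESeq2 (adjusted p = 0.210), and it lay between 1.04 and 3.45 over 15 alternative analyses. SCUBE1, a carrier that helps to release the ligand, had wild type counts of 15 and 62 and knockout counts of 247 and 30, with knockout 1 apart from the rest, and its relative SCUBE2 had 3, 8, 13 and 15. HHAT, which attaches palmitate to the ligand, had wild type counts of 342 and 272 and knockout counts of 214 and 263, and DISP1, which exports it, had 182, 142, 129 and 136. Both knockout libraries were below both wild type libraries for HHAT and for DISP1. IHH and DHH had at most 5 counts in any library and were not tested.

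Among the other surface proteins 7 of 8 were tested, with a median log2 fold change of 0.18. GPC4 had a log2 fold change of 0.61 ± 0.23 (SE; edgeR adjusted p = 0.808) and was, with SHH, the other gene at an unadjusted p under 0.05. GPC6, another glypican, had wild type counts of 158 and 168 and knockout counts of 100 and 125, and GAS1, a further ligand co-receptor, had 85 and 159 against 193 and 207. MGRN1, a ubiquitin ligase that limits SMO at the cell surface, had 694, 840, 857 and 889 counts. LRP2 was not tested.

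The 14 genes of the cilium and its traffic were all tested, and the median of their log2 fold changes was 0.12, with 0 at an unadjusted p under 0.05 in either direction. KIF7, a ciliary kinesin that organises GLI and SUFU, had wild type counts of 362 and 313 and knockout counts of 501 and 412. TULP3, an adaptor for ciliary cargo, had 648 and 743 against 1014 and 798, and EVC, which joins SMO in the cilium, had 940 and 1520 against 2685 and 1342. Knockout 1 was the highest library for all 3.

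The 16 kinases and ubiquitin ligases that act on GLI proteins or SMO had a median log2 fold change of -0.10, with 0 at an unadjusted p under 0.05. The knockout libraries were both below the wild type libraries for 6 of them, where 18.0% of all tested genes were, and above for 2, where 17.8% were. The 2 were CSNK1D and GRK2, with log2 fold changes of 0.31 each. NUMB, an adaptor that directs GLI1 to degradation, had wild type counts of 1643 and 1427 and knockout counts of 1302 and 1172 (log2 fold change -0.37). The highest levels were those of CSNK1A1 at 238 TPM and PRKAR1A at 155 TPM over 4 libraries.

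Of the 12 target genes outside the core 11 were tested, and the median of their log2 fold changes was 0.19, with 0 at an unadjusted p under 0.05. CCND2, a cyclin, had wild type counts of 484 and 606 and knockout counts of 691 and 803, while its relative CCND1 had 9894 and 7347 against 7521 and 6678. NKX2-2, a homeobox factor of the ventral neural tube, had 65, 83, 86 and 176 counts, and RAB34, a ciliary GTPase, had a log2 fold change of 0.05. FOXE1 was not tested.

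**Figure D5:**
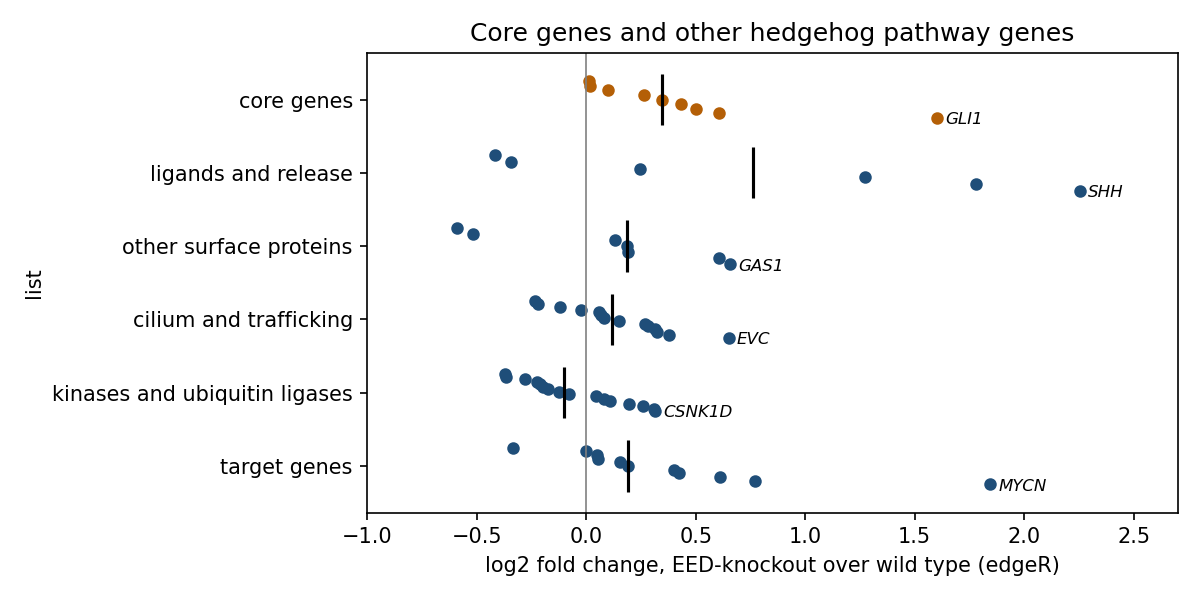
Log2 fold change (edgeR) of each tested gene, EED-knockout over wild type, for the 9 core genes (orange) and 5 lists of other pathway genes (blue); the vertical bar in each row is the list's median. The core genes have a median of 0.35, the ligand genes 0.76 and the kinases and ubiquitin ligases -0.10. The ligand median rests on 6 genes, 4 above 0 and 2 below. None of the points passed the test over all genes.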

How the data were processed

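Per the labels' protocols, libraries were made with an Illumina kit from TRIZOL-extracted, column-cleaned total RNA. The submitters' processing notes name kallisto 0.43.1 and hg38, and the deposited estimated counts are that tool's fragments per transcript, per the file headers. The deposited TPM values are the same tool's abundances per effective length, per the file headers. Its annotation release and strand setting are not given here. Positions are from GENCODE 29 on GRCh38, the same build.

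Counts of 199324 transcripts were summed to 58174 genes and rounded. The main test was edgeR's two-sided quasi-likelihood test (version 4.0.16; R 4.3.3) with TMM factors, filterByExpr (minimum count 10, minimum total 15), no covariate, and Benjamini-Hochberg adjustment over all 18349 genes or 56828 transcripts at a threshold of 0.05. A count of 3 stood for 0.158 to 0.166 CPM. The script was tested on simulated data. Members and lists were chosen with earlier results of these data known, so no list was given a test of its own. Named were the 9 members, EED, transcripts holding at least 10% of a member's counts in any library, per list the up to 3 genes with the smallest unadjusted p and the 2 with the highest mean TPM, and the 3 genes nearest to GLI1 (log2 CPM with a prior count of 2). Of these, 1 gene is not reported here. Other genes and transcripts were named after their values were seen.

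The alternatives, whose effect is given in the closing section, were RLE size factors, no filter, a filter of 1 CPM in 2 libraries, replicate number as a block, DESeq2 1.42.0, limma 3.58.1 (voom, and trend on log2(TPM + 1) and log2(TPM + 0.1)), length-scaled TPM counts, a loess offset on GC content and length (99.9% of genes had both), and leaving out each library. A genotype left with 1 library was taken to vary as the other genotype did. PTCH1 transcripts were assigned to the nearest RefSeq start from 100 bases downstream to 1000 bases upstream of their own.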

Additional observations from a re-analysis of the deposited data

How the results depend on the processing

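No core gene was called under any of the 15 alternatives or with crossed pairing. Over all genes, against 0 with edgeR, DESeq2 called 68, and edgeR called 23 without knockout 1 and 19 without wild type 2. The number of core genes higher at an unadjusted p under 0.05 was 1, but 0 with the replicate block and with the GC content and length offset, alone or with the block, 2 in both limma-trend fits on TPM, 3 with length-scaled TPM counts, and from 0 to 2 with each library left out. The number lower was 0, and from 0 to 1 with each library left out. Among the other pathway genes 2 were higher, but 1 with the replicate block and from 1 to 7 with each library left out, and 0 were lower, but 1 in both limma-trend fits, 1 with length-scaled TPM counts and from 0 to 1 with each library left out. The members' median of 0.35 was 0.23 with the block, 0.23 with limma-voom, 0.48 and 0.56 on log2(TPM + 1) and log2(TPM + 0.1), 0.58 with length-scaled TPM counts, 0.16 with the offset and block together, and from 0.16 to 0.40 with each library left out.

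Some fold changes changed sign, most of them near 0 but also those of HHIP (0.61) and SCUBE1 (1.78), both below 0 without knockout 1. With the replicate block GLI3 was at -0.014. With limma-voom GLI3 was at -0.014 and HHIP at -0.022. With length-scaled TPM counts SUFU was at -0.028. With the offset GLI3 was at -0.074, SUFU at -0.121 and MGRN1 at -0.044. With the offset and block together GLI3 was at -0.094, PTCH1 at -0.0057, SUFU at -0.125 and MGRN1 at -0.044. With each library left out the range was -0.30 to 0.26 for GLI3, -0.23 to 0.36 for PTCH1, -0.12 to 0.14 for SUFU, -1.50 to 1.42 for HHIP, -0.11 to 0.56 for CDON, -0.0032 to 0.27 for MGRN1, -0.12 to 0.19 for PRKAR1A, -0.027 to 0.119 for RAB34 and -0.40 to 3.13 for SCUBE1. The cause was not tested. The fold changes of GLI1, GLI2, SMO and BOC kept their sign under all 15 alternatives.

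DESeq2 called 1 core transcript, PTCH1-203, and edgeR 0. At an unadjusted p under 0.05 edgeR found 2, but 1 with the 1 CPM filter, 1 with the replicate block and from 2 to 5 with each library left out. The ratio of the highest to the lowest level was 8.47 in TPM and 43.0 per count-weighted effective length (planned as scaled CPM per kilobase, and brought to the total of TPM so that both can be compared), and from 8.44 to 11.4 in TPM with each library left out.

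Whether the replicate numbers pair the libraries is not known. Deviations of same-numbered libraries correlated at r = -0.141 over 18349 genes, which cannot decide it with 2 libraries a genotype. The block left 0 core genes called, and crossed pairing, chosen after seeing the data, also left 0. Precision is limited by 2 libraries a genotype and a common biological coefficient of variation of 0.276, and for GLI1 by 5 to 28 counts.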

Other observations

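The core genes lie on different chromosomes, apart from GLI3 and SMO on opposite arms of chromosome 7. The median log2 fold change of the tested genes within 5 Mb of each was 0.05 for GLI1 (160 genes), 0.11 for GLI2 (23), -0.01 for GLI3 (67), 0.00 for PTCH1 (79), -0.06 for SMO (70), 0.17 for SUFU (97), 0.14 for HHIP (28), 0.21 for BOC (41) and -0.06 for CDON (61). The value of BOC, 0.43, thus stood above neighbours that were themselves higher than the median of all genes, 0.01, whereas the neighbours of SMO and GLI1 were near it.

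MYCN, a hedgehog target gene and a medulloblastoma oncogene, had wild type counts of 0 and 11 and knockout counts of 36 and 6, with knockout 1 the highest. SFRP1, a secreted WNT antagonist counted among both the targets and the SHH-subgroup markers, had wild type counts of 1017 and 1432 and knockout counts of 2831 and 1067. Knockout 1 was thus the highest library for MYCN, SFRP1, HHIP, SCUBE1 and EVC, genes picked here after their values were seen, and knockout 2 lay within or below the wild type range for all of these.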
